A study of Mus musculus with 24 samples.

Results

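Fgd5, Klhl6, Fam43a and Zadh2 are 4 genes that were more abundant in Flk1+ than in Flk1- cells sorted from mouse embryoid bodies, and they are followed here beside Kdr, the gene that encodes Flk1. They were chosen by name, with earlier results of these data known, for levels that went with Kdr across the sorted groups, so the values of the 4 genes and of Kdr are given as a description with no test. Each gene is the only one that the platform annotation names for 1 probe, so 4 probes stand for 4 of 8973 named genes. Embryoid bodies are clumps in which embryonic stem cells differentiate. Cells that carried the Flk1 receptor (Flk1+) and cells that did not (Flk1-) were collected after 84 h, after 95 h and after 8 d of differentiation, with 4 arrays for each of the 6 groups. The labels name no stem cell line, genotype, strain or treatment, and all 24 sample RNAs were measured against the same reference, RNA of homogenised mouse pups.

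The label of genes that track Kdr held in part. Of the 4 genes Klhl6 had the profile nearest to that of Kdr, but 95 h minus 84 h in Flk1- cells was 0.47 for Klhl6 and -0.16 for Kdr. Fam43a and Fgd5 shared mainly the sort difference, and 8 d minus 95 h in Flk1+ cells was 0.32 for Fam43a. Zadh2 shared the direction of the sort difference, but its largest difference was between 8 d and 95 h, at 3.33 in Flk1+ and 3.17 in Flk1- cells, where Kdr was at -0.27 and 0.77. All 4 genes had a higher mean level with the receptor than without it at each of the 3 times.

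Flk1 is a receptor tyrosine kinase for vascular endothelial growth factor (VEGF). It is present on early mesoderm cells that can give rise to blood, endothelium and muscle, and it stays on endothelial cells as they mature. Fgd5 encodes a guanine nucleotide exchange factor for the small GTPase Cdc42 and is known from endothelial cells and from blood stem cells. Klhl6 encodes a BTB-Kelch protein, a family whose members bring substrates to Cullin 3 ubiquitin ligases, and is known from B cell signalling. Fam43a encodes a protein with a phosphotyrosine interaction domain of little-known function, and Zadh2, also called prostaglandin reductase 3, encodes a reductase that acts on 15-keto prostaglandins.

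The DNA before a gene's start is where its regulators can bind. No upstream window was found for Zadh2, so the sequences just upstream of the other 3 genes are shown. They are given because the genes shared the direction of the sort difference, as Zadh2 did. They are from RefSeq on mouse build GRCm38.p6, written 5′ to 3′ on the gene's strand and end at the base before the annotated gene. Capitals mark the letters AGGAAG, a core bound by ETS factors, or GATAA, a core bound by GATA factors, on either strand. Fgd5 is shown over 112 bases at chr6:91978715-91978826 (plus strand), Klhl6 over 250 bases at chr16:19983050-19983299 (minus strand) and Fam43a over 250 bases at chr16:30599473-30599722 (plus strand).
Fgd5: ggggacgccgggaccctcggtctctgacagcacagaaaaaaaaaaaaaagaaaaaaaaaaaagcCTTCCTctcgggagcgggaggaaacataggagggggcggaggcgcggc
Klhl6: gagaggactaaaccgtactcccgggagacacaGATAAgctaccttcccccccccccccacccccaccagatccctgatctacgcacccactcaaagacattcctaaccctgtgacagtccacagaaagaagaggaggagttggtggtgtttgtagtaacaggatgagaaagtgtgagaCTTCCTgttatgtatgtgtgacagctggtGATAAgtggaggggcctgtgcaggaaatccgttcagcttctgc
Fam43a: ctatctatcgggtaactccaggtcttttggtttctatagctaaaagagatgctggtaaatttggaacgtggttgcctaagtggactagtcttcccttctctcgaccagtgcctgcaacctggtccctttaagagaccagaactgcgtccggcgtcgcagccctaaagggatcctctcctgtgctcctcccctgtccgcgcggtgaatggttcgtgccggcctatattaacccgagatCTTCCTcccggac
The 3 stretches each held 1 match to AGGAAG or its complement, and the stretch before Klhl6 also held 2 matches to GATAA. Over the full 250 bases before the start site, AGGAAG or its complement was in 29.5% and GATAA or its complement in 22.6% of 32851 RefSeq windows of the same length, and the window of Kdr held 0 of each. The 250-base window of Fgd5 runs into the annotated gene, and only its first 112 bases are printed above. The letters GGGCGG (GC box, in 32.7% of all windows) matched 5 times in that window, not all of them before the gene. They matched 2 times in the window of Kdr and 0 times in those of Klhl6 and Fam43a. CANNTG (E-box, in 66.2% of windows) matched 1 time each before Klhl6 and Kdr, and CTTTGA (TCF/LEF core, in 13.8%) 1 time before Klhl6. TATAAA, in 12.4% of windows, was in none of the 4 windows. A match says only that these letters are present.

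Values are log2 ratios of sample over pup reference, with the median of each array set to 0, so a level of 0 is that of the median probe and levels are compared between groups of 1 gene, not between genes. The deposited table names neither the log base nor the direction. Of 10 measured genes of newborn tissues 10 lay below 0 (median -2.30) and of 12 pluripotency genes 10 lay above 0 (median 0.62), and the values were read as sample over reference. With another log base all differences would change by 1 common factor, and the folds given here would change with it. Arrays of 1 group correlated at 0.59 to 0.93 for Flk1+ cells at 84 h and at 0.67 to 0.97 in the other groups. Arrays 2 and 4 of the Flk1+ cells and array 4 of the Flk1- cells at 84 h stood apart in an earlier analysis, and the 84 h differences are also given without them. The labels do not say that the arrays of a group came from separate cultures, so errors and p-values measure the spread between these arrays, which may be technical. A feature was called at a Benjamini-Hochberg adjusted p under 0.05 in limma over 17440 features.

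**Figure D1:**
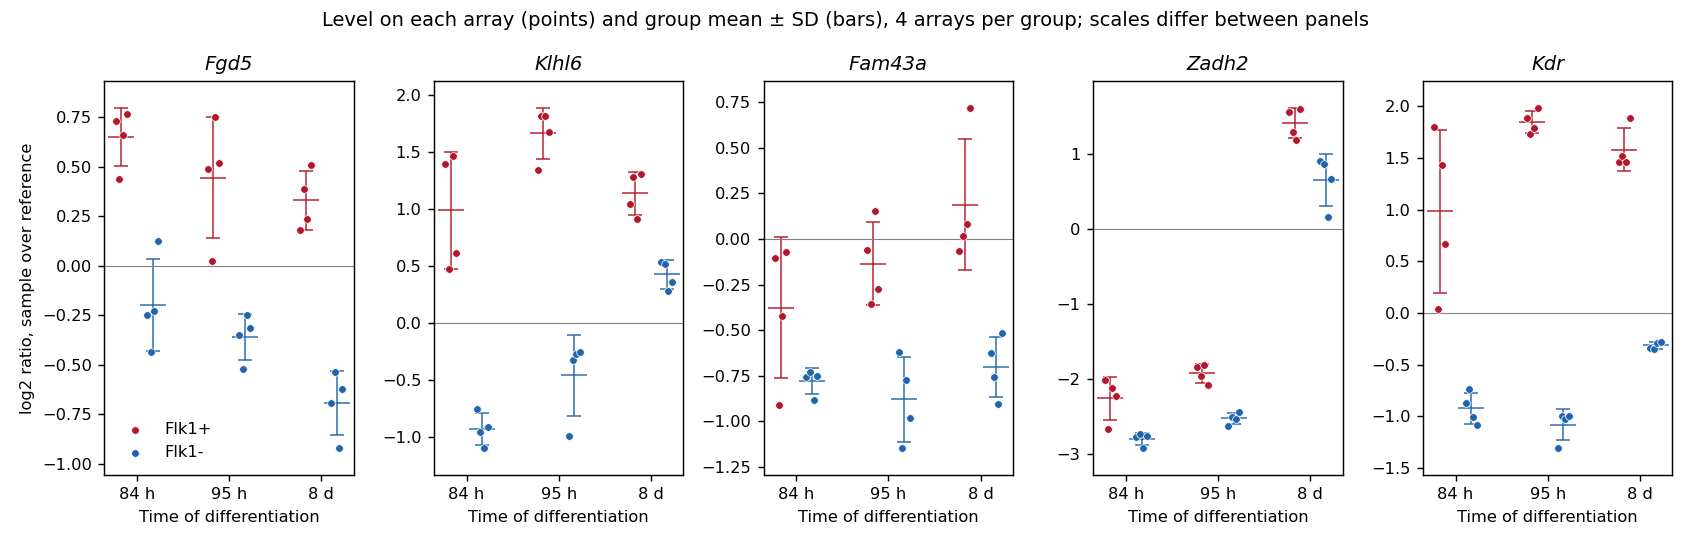
Levels of Fgd5, Klhl6, Fam43a, Zadh2 and Kdr on each array (y axis, log2 ratio of sample over reference) at 84 h, 95 h and 8 d (x axis); points are arrays, bars the mean ± SD of 4 arrays, Flk1+ in red to the left of Flk1- in blue. In Klhl6 and Kdr the Flk1+ arrays sit above the Flk1- arrays at each time, and Zadh2 lies above 0 on all 8 arrays of 8 d and below -1.8 on the 16 earlier arrays.

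Kdr itself separated the sorted cells. Its level was 1.80, 0.04, 1.43 and 0.67 on arrays 1 to 4 of Flk1+ cells at 84 h, against -0.87, -0.74, -1.0 and -1.08 in Flk1- cells. At 95 h it was 1.88, 1.73, 1.79 and 1.98 in Flk1+ cells, against -1.30, -1.0, -1.02 and -1.0 in Flk1- cells. At 8 d it was 1.46, 1.51, 1.46 and 1.89 in Flk1+ cells, against -0.34, -0.35, -0.29 and -0.28 in Flk1- cells. The sorts did not overlap at any time, and arrays 2 and 4 of Flk1+ cells at 84 h were the lowest of that sort. Flk1+ minus Flk1- was 1.91, 2.93 and 1.89 (SE 0.23 each) at 84 h, 95 h and 8 d.

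Klhl6 had the profile nearest to that of Kdr. Its level was 1.40, 0.48, 1.46 and 0.62 on arrays 1 to 4 of Flk1+ cells at 84 h, against -0.76, -0.95, -1.09 and -0.91 in Flk1- cells. At 95 h it was 1.35, 1.81, 1.82 and 1.68 in Flk1+ cells, against -0.99, -0.32, -0.27 and -0.25 in Flk1- cells. The 2 sorts were clearly apart at both times, and the 2 arrays of Flk1+ cells at 84 h that were low for Kdr were also the 2 low ones for Klhl6. At 8 d Klhl6 was 1.04, 1.29, 0.91 and 1.31 in Flk1+ cells, against 0.54, 0.52, 0.29 and 0.36 in Flk1- cells. The sorts still did not overlap, but the gap was smaller and Flk1- cells now lay above 0.

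Flk1+ minus Flk1- for Klhl6 was 1.92, 2.12 and 0.71 (SE 0.20 each) at the 3 times, which are 3.77-fold, 4.35-fold and 1.64-fold. These differences were 100.4%, 72.5% and 37.5% of those of Kdr. From 84 h to 95 h the sort difference of Klhl6 changed by 0.21 (SE 0.28) and that of Kdr by 1.02 (SE 0.33). Without the 3 arrays of 84 h these changes were -0.24 (SE 0.25) and 0.44 (SE 0.18). In Flk1- cells 95 h minus 84 h was 0.47 (SE 0.20) for Klhl6 and -0.16 (SE 0.23) for Kdr. From 95 h to 8 d the sort difference of Klhl6 changed by -1.41 (SE 0.28) and that of Kdr by -1.03 (SE 0.33). The 2 sorts contributed in opposite directions for Klhl6, since 8 d minus 95 h was -0.53 (SE 0.20) in Flk1+ cells and 0.88 (SE 0.20) in Flk1- cells, both without overlap of arrays. Kdr had the same signs, at -0.27 and 0.77 (SE 0.23 each). Array 1 of Flk1- cells at 95 h was low for both genes, and without it the Klhl6 sort difference at 95 h was 1.94 and its 8 d minus 95 h in Flk1- cells 0.71. The order of the Klhl6 group means was Flk1+ at 95 h, 8 d and 84 h, then Flk1- at 8 d, 95 h and 84 h. Of these neighbours only Flk1+ at 95 h and 8 d, and Flk1- at 8 d and 95 h, had arrays that did not overlap.

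Fam43a had a higher mean in Flk1+ cells, with a gap of 0.40 at 84 h and of 0.89 at 8 d. At 84 h its level was -0.11, -0.91, -0.42 and -0.07 on arrays 1 to 4 of Flk1+ cells, against -0.76, -0.73, -0.88 and -0.75 in Flk1- cells. Array 2 of the Flk1+ cells lay below all 4 Flk1- arrays, so the sorts overlapped at this time. At 95 h the level was -0.06, -0.35, 0.15 and -0.27 in Flk1+ cells, against -0.62, -1.14, -0.77 and -0.98 in Flk1- cells. At 8 d it was -0.06, 0.02, 0.08 and 0.72 in Flk1+ cells, against -0.63, -0.76, -0.90 and -0.52 in Flk1- cells. The sorts did not overlap at 95 h or 8 d, and array 4 of the Flk1+ cells at 8 d was the highest of that group, as it was for Kdr and the other 3 genes.

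Flk1+ minus Flk1- for Fam43a was 0.40, 0.75 and 0.89 (SE 0.18 each), or 1.32-fold, 1.68-fold and 1.85-fold. The group mean of Flk1+ cells was -0.38 ± 0.39, -0.13 ± 0.23 and 0.19 ± 0.36 at 84 h, 95 h and 8 d, and that of Flk1- cells -0.78 ± 0.07, -0.88 ± 0.23 and -0.70 ± 0.17 (SD, n = 4 each). The range of the 3 means was thus 0.56 in Flk1+ and 0.18 in Flk1- cells, and no neighbours in the order of the 6 means were free of overlap.

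Fgd5 had a gap of 0.80 to 1.02 between the sorts, and its mean was lower at 8 d than at 84 h in both. At 84 h it was 0.73, 0.44, 0.66 and 0.77 on arrays 1 to 4 of Flk1+ cells, against -0.25, -0.44, -0.23 and 0.12 in Flk1- cells. At 95 h it was 0.49, 0.02, 0.75 and 0.52 in Flk1+ cells, against -0.35, -0.52, -0.25 and -0.31 in Flk1- cells. At 8 d it was 0.18, 0.39, 0.24 and 0.51 in Flk1+ cells, against -0.69, -0.54, -0.92 and -0.62 in Flk1- cells. The sorts did not overlap at any time, although array 2 of Flk1+ cells at 95 h came close to 0. At 84 h array 4 of the Flk1+ cells, low for Kdr and Klhl6, was the highest for Fgd5.

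Flk1+ minus Flk1- for Fgd5 was 0.85, 0.80 and 1.02 (SE 0.14 each), or 1.80-fold, 1.74-fold and 2.03-fold. The sort difference changed by -0.04 from 84 h to 95 h and by 0.22 from 95 h to 8 d (SE 0.20 each), within 2 SE of 0, where that of Kdr changed by 1.02 and -1.03 (SE 0.33 each). Without the 3 arrays of 84 h the first change was -0.20 (SE 0.21) for Fgd5 and 0.44 (SE 0.18) for Kdr. The means in Flk1+ cells were 0.65 ± 0.15, 0.44 ± 0.31 and 0.33 ± 0.15 at the 3 times, and in Flk1- cells -0.20 ± 0.23, -0.36 ± 0.12 and -0.69 ± 0.16 (SD, n = 4 each). In the order of the means the 3 Flk1+ groups overlapped with each other, and Flk1+ cells at 8 d lay above Flk1- cells at 84 h without overlap. Flk1- cells at 8 d lay just below those at 95 h, with a highest array of -0.54 against a lowest of -0.52.

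Zadh2 changed far more with time than with the sort. At 84 h its level was -2.02, -2.68, -2.12 and -2.23 on arrays 1 to 4 of Flk1+ cells, against -2.78, -2.73, -2.92 and -2.76 in Flk1- cells. At 95 h it was -1.85, -1.96, -1.81 and -2.09 in Flk1+ cells, against -2.63, -2.51, -2.54 and -2.44 in Flk1- cells. At 8 d it was 1.56, 1.29, 1.18 and 1.59 in Flk1+ cells, against 0.91, 0.86, 0.15 and 0.66 in Flk1- cells. The sorts did not overlap at any of the 3 times, by 0.06 only at 84 h, where array 2 of the Flk1+ cells lay near the Flk1- arrays.

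Flk1+ minus Flk1- for Zadh2 was 0.54, 0.60 and 0.76 (SE 0.15 each), or 1.45-fold, 1.52-fold and 1.69-fold. Both sorts were higher at 8 d, with 8 d minus 95 h at 3.33 in Flk1+ and 3.17 in Flk1- cells (SE 0.15 each), 10.1-fold and 9.01-fold. The sort difference changed by 0.16 (SE 0.21) over that step. All 8 arrays of 8 d lay above all 16 earlier arrays, and the 2 Flk1- groups of 84 h and 95 h, the lowest of the 6, were also free of overlap. Higher levels without overlap at 8 d than at 95 h were found for 17.2% of all features in Flk1+ and 13.8% in Flk1- cells. RNA of sorted pools does not tell more RNA per cell from more cells of a kind.

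**Figure D2:**
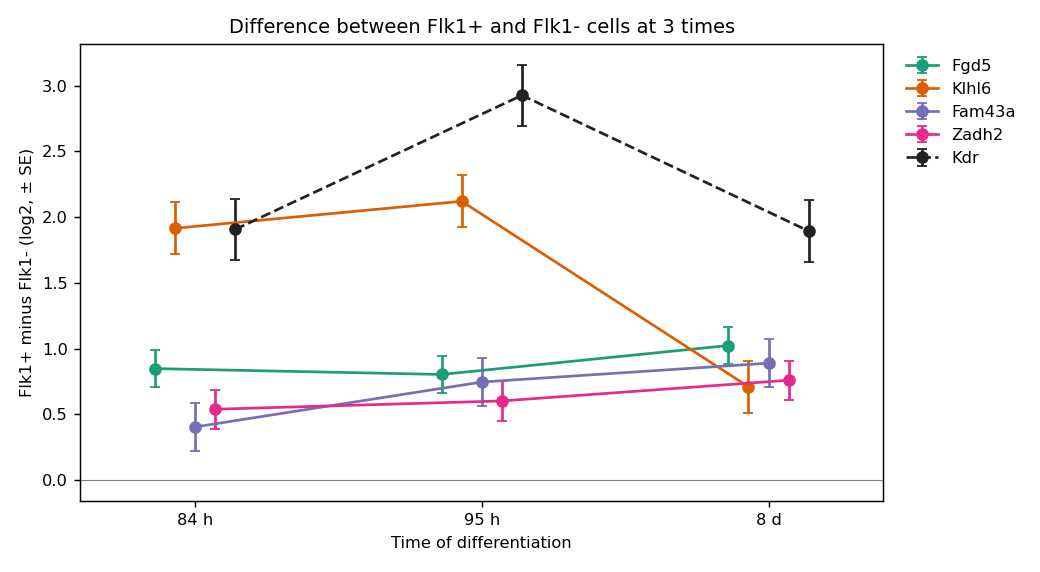
Flk1+ minus Flk1- (y axis, log2, with SE bars) at 84 h, 95 h and 8 d (x axis) for Fgd5, Klhl6, Fam43a and Zadh2 (solid lines) and Kdr (dashed). Klhl6 starts beside Kdr at 1.92 and 1.91 and ends at 0.71, below the other 3 genes, while Fgd5, Fam43a and Zadh2 stay between 0.40 and 1.02.

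Of the 4 genes, 3 at 84 h and 4 each at 95 h and 8 d had Flk1+ arrays that all lay above the Flk1- arrays, beside 8.76%, 2.14% and 9.06% of all features at the same times. Since the genes were selected on these differences, the shares are given for scale. Without the 3 arrays of 84 h, which leaves 2 Flk1+ and 3 Flk1- arrays, the difference at 84 h was 2.36 for Klhl6, 1.00 for Fgd5, 0.53 for Fam43a and 0.74 for Zadh2, and 2.49 for Kdr. All 5 differences were larger without these arrays.

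Likeness to Kdr was measured as Pearson r over the 6 group means and as the root mean square (RMS) distance between profiles after each gene's own mean was taken off, among 1819 named genes whose group means spanned at least 1. These points share arrays and scaling, and the ranks describe how the genes were chosen. The median gene had r = -0.04 and a distance of 1.30. Klhl6 ranked 1 by both, with r = 0.95 and a distance of 0.42. Fam43a ranked 3 by r, at 0.94, and 13 by distance, at 0.83, with smaller sort differences than Kdr. Fgd5 ranked 10 by r, at 0.80, and 15 by distance, at 0.84. Zadh2 ranked 185 by r, at 0.36, and 1714 by distance, at 1.64, which is farther from Kdr than the median gene. With quantile normalization Fam43a ranked 1 and Klhl6 2 by r. With no minimum span, among 8972 named genes, Fgd5 ranked 56 and Zadh2 1188 by r, with Klhl6 still at 1 and Fam43a at 3. Klhl6 stayed at rank 1 by distance in both settings.

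**Figure D3:**
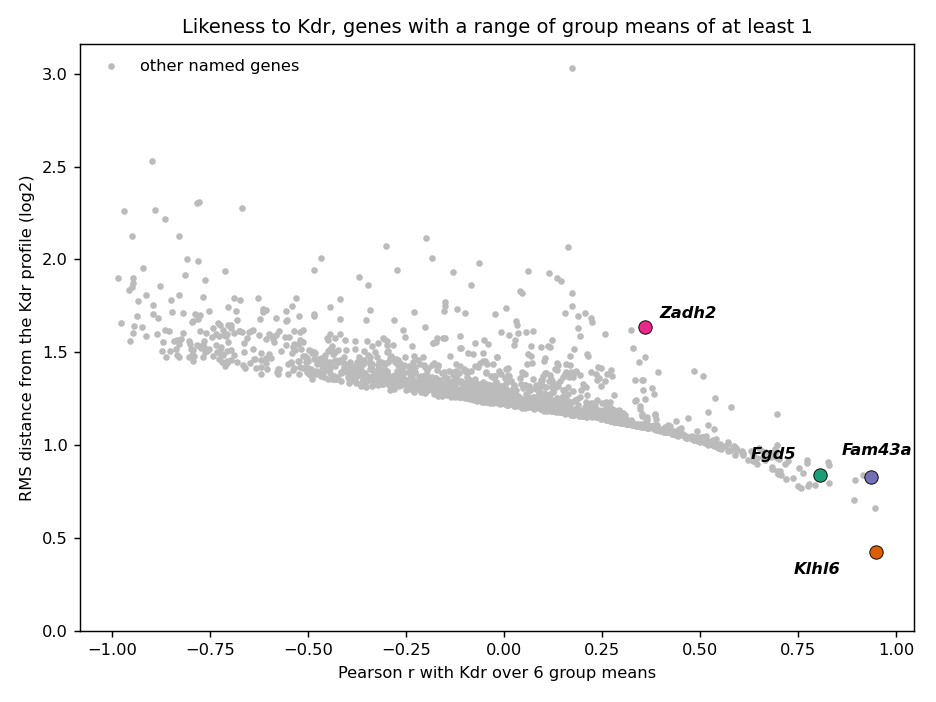
Each point is 1 of 1819 named genes, placed by Pearson r with Kdr over 6 group means (x axis) and RMS distance from the Kdr profile (y axis, log2). Klhl6 lies alone at the lower right with r = 0.95 and a distance of 0.42, and Fam43a and Fgd5 near 0.83 and 0.84. Zadh2 lies at r = 0.36 and a distance of 1.64, rank 1714 of 1819 by distance.

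The other genes among the 10 with the highest r were Tenm4 (0.94), a teneurin adhesion protein, Tns2 (0.91), a focal adhesion tensin, the homeobox gene Pbx3 (0.89), the sulfotransferase gene Chst2 (0.89), Rhoj (0.83), a Cdc42-like GTPase of endothelial cells, the RNA-binding protein gene Mex3b (0.83) and BC034090 (0.83). By distance, Tnfrsf1a (0.77), Lhfp (0.78), Gata3 (0.78), Wnt5a (0.79) and Usp18 (0.79) were also among the nearest 10. Several of these had a small sort difference at 8 d, when that of Kdr was 1.89. Flk1+ minus Flk1- at 84 h, 95 h and 8 d was 2.00, 1.40 and 0.01 (SE 0.22 each) for Gata3, a zinc finger transcription factor, and 1.62, 0.86 and 0.15 (SE 0.20 each) for Wnt5a, a Wnt ligand. For Tenm4 it was 1.31, 1.07 and 0.74 (SE 0.18 each).

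The profiles nearest to each gene differed. Nearest to Fgd5 were Notch1 (distance 0.22), the Notch receptor, and Aplnr (0.25), the apelin receptor, followed by Nin, Rhoj and Fam43a at 0.31 to 0.33. Notch1 differed between Flk1+ and Flk1- cells by 1.22, 0.43 and 0.87 (SE 0.20 each) at the 3 times. Nearest to Fam43a were Tns2 (0.14), Rhoj (0.21), the coagulation factor gene F10 (0.21), Epha4 (0.25), an ephrin receptor, and Eng (0.25), a coreceptor of transforming growth factor beta on endothelium. Nearest to Klhl6 were Lhfp, Tenm4, Chst2, Wnt5a and Kdr at 0.38 to 0.42. Klhl6 was the only 1 of the 4 with Kdr among its nearest 5. By distance, Kdr ranked 1188 from Fgd5, 1564 from Fam43a and 1209 from Zadh2. Distance also depends on how far the levels spread, and group means spanned 2.93 for Kdr, 1.34 for Fgd5 and 1.07 for Fam43a. The r of Fam43a was 0.94 with Kdr and 0.80 to 0.93 with its nearest 5. That of Fgd5 was 0.80 with Kdr, 0.90 with Notch1, 0.86 with Aplnr and 0.72 to 0.76 with Nin, Rhoj and Fam43a. The r of Zadh2 with Kdr was 0.36.

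Nearest to Zadh2 were Emp3 (0.26), a membrane protein gene, Tgfbi (0.27), a matrix protein, Pcolce (0.29), an enhancer of procollagen processing, Cd248 (0.30), the endosialin gene of mural and stromal cells, and Adgra2 (0.30), an adhesion receptor. Their r with Zadh2 was 0.99 to 1.00 over the 6 means. Group means of Tgfbi were 0.88 in Flk1+ and 0.45 in Flk1- cells at 8 d, against -2.21 and -2.37 at 95 h. Their sort differences at 8 d lay between 0.24 (Pcolce, SE 0.16) and 0.44 (Adgra2, SE 0.22), where that of Zadh2 was 0.76 (SE 0.15).

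Of the endothelial genes 0 were called higher in Flk1+ cells at the 2 early times and 4 at 8 d. Of 26 listed genes 13 were measured. At 84 h 0 were higher (2 at an unadjusted p under 0.05) and 1 was lower in Flk1+ cells (Notch4, -0.41, SE 0.12, adjusted p = 0.0313), and at 95 h 0 were higher and 0 lower, with 0 also at an unadjusted p under 0.05. Over all features 5.3% were higher and 8.18% lower at 84 h, and 0.659% and 1.37% at 95 h. At 8 d 4 of 13 were higher and 0 lower, where 0.149% of all features were higher and 0.224% lower. Cdh5, the endothelial cadherin, differed by 1.84 (SE 0.15, adjusted p = 5.83e-07), Eng by 1.39 (SE 0.22, adjusted p = 0.00261), the sialomucin gene Cd34 by 0.89 (SE 0.12, adjusted p = 0.000487) and the Notch ligand gene Dll4 by 0.67 (SE 0.13, adjusted p = 0.0211). In 11 of 13 the Flk1+ arrays at 8 d all lay above the Flk1- arrays, beside 9.06% of all features.

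The median difference of the 13 genes was 0.03, -0.04 and 0.32 at 84 h, 95 h and 8 d, while that of all features was 0.00, 0.00 and 0.01. The mean level of the list was -0.41 to -0.15 on the Flk1+ arrays at 8 d, against -0.87 to -0.77 on the Flk1- arrays, and at 84 h the sorts overlapped, at -1.16 to -0.85 and -0.99 to -0.95. At 84 h and 95 h 0 of 13 endothelial genes had Flk1+ arrays that all lay above the Flk1- arrays, beside 8.76% and 2.14% of all features. Those of 2 genes at 84 h and 0 at 95 h all lay below. Fgd5, Klhl6 and Zadh2 lay above without overlap at both times, but they were selected on these differences, so this is no comparison with the list. With the replicate number as a block Eng (adjusted p = 0.0341) and Sox18 (adjusted p = 0.0383) were called higher at 84 h. The count of 4 at 8 d was 3 to 5 with any 1 array left out and 3 to 10 over all alternatives, with 7 from the 8 arrays of 8 d alone and 10 with array weights.

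Foxa2 and some other markers of endoderm had lower levels with the receptor. Of 10 measured endoderm genes 5 were lower and 2 higher at 84 h, 4 lower and 0 higher at 95 h, and 3 lower and 0 higher at 8 d. Foxa2, Sox17, Epcam and Cdh1 were called lower at 84 h and 95 h, and Krt18 at 84 h. Ttr, Apoe and Dab2 were called at neither of these times. Over all features 8.18%, 1.37% and 0.224% were lower at the 3 times, and 5.3% were higher at 84 h. The 2 higher at 84 h were Apoa1 (0.36, SE 0.10, adjusted p = 0.0301) and Krt8 (0.39, SE 0.12, adjusted p = 0.0304), and 3 of 10 were not called at that time. Without the 3 arrays of 84 h 3 were lower and 0 higher at 84 h. At 8 d the transthyretin gene Ttr differed by -2.0 (SE 0.16, adjusted p = 2.68e-07), the forkhead factor gene Foxa2 by -1.67 (SE 0.20, adjusted p = 0.000132) and the apolipoprotein gene Apoa1 by -0.53 (SE 0.10, adjusted p = 0.0201). That count was 2 to 4 with any 1 array left out and 2 to 10 over all alternatives, with 6 without the 3 arrays of 84 h and 10 with array weights. With the replicate block Epcam (-1.14, adjusted p = 0.0112) was also called lower at 8 d. The mean level of the list was -1.09 to -0.91 on the Flk1+ arrays at 8 d, against -0.24 to -0.08 on the Flk1- arrays. The part of this list in the levels of the 4 genes was not tested.

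**Figure D4:**
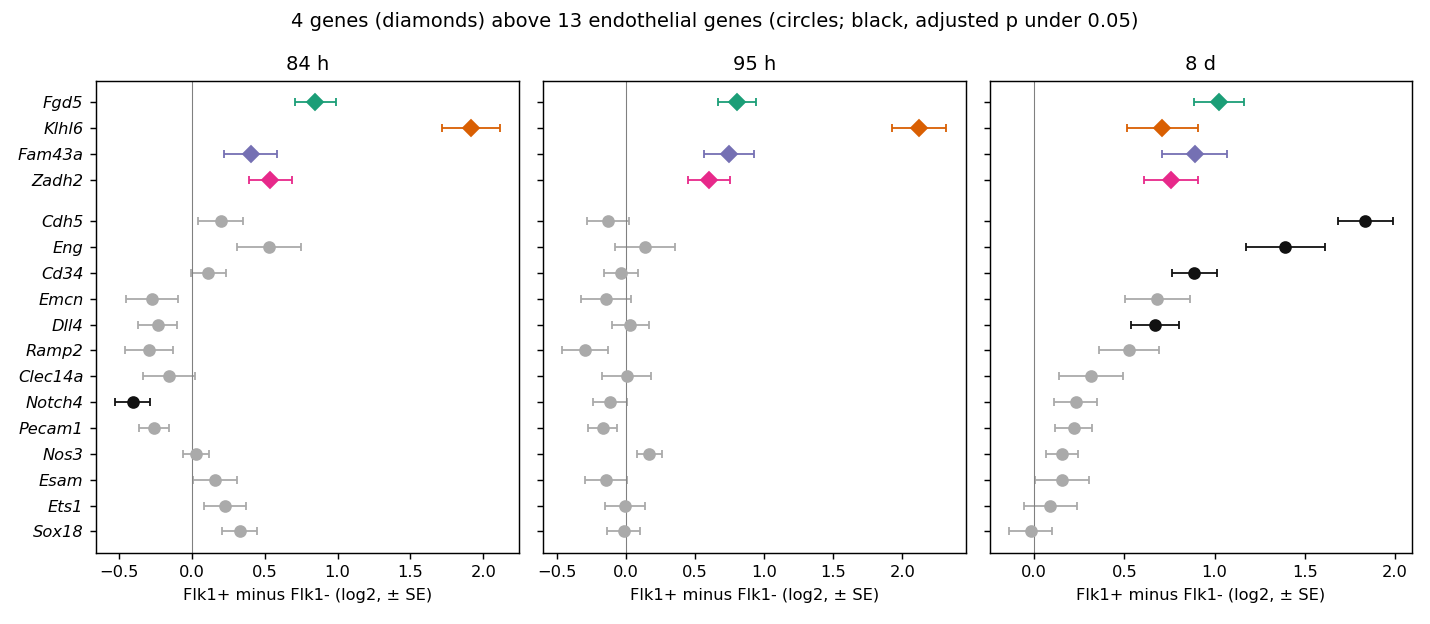
Flk1+ minus Flk1- (x axis, log2, with SE bars) at 84 h, 95 h and 8 d for Fgd5, Klhl6, Fam43a and Zadh2 (diamonds) above 13 endothelial genes (circles, black where the adjusted p was under 0.05). The diamonds lie above 0 in all 3 panels, and black circles above 0 appear in the 8 d panel only (Cdh5, Eng, Cd34 and Dll4).

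Markers of early mesoderm went with the sort at the early times. Of 11 measured genes 9 were higher in Flk1+ cells at 84 h, 5 at 95 h and 0 at 8 d, where 0 were also higher at an unadjusted p under 0.05. At 8 d 0 were called lower and 3 were lower at an unadjusted p under 0.05. Of these Tbx3, at -0.59 (SE 0.18), was called lower with the replicate block (adjusted p = 0.0034) and without the 3 arrays of 84 h (adjusted p = 0.0323). The 95 h count was 3 to 6 with any 1 array left out (3 without array 2 or 4 of Flk1+ cells or array 4 of Flk1- cells of that time), and 2 to 6 over all alternatives. The 84 h count was 7 to 10 with any 1 array left out and 5 to 10 over all alternatives. Tbx3, a T-box factor, differed by 2.37 (SE 0.18, adjusted p = 2.1e-08) at 84 h and by 1.99 (SE 0.18, adjusted p = 3.39e-07) at 95 h, and Hand1 by 1.71 and 1.27 (SE 0.23 each). Higher calls made up 5.3% of all features at 84 h and 0.659% at 95 h, and lower calls 8.18% and 1.37%. Pluripotency genes were lower, in 8 of 12 at 84 h, 5 at 95 h and 0 at 8 d (3 at an unadjusted p under 0.05). On the arrays of Flk1+ cells at 84 h the mean mesoderm level was 1.37, 1.73, 1.41 and 1.75 and the mean pluripotency level 0.45, 0.29, 0.60 and 0.16, so arrays 2 and 4, low for Kdr and Klhl6, were the 2 highest for mesoderm and the 2 lowest for pluripotency genes. The part of these shifts in the levels of the 4 genes was not tested.

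Genes of the VEGF pathway other than Kdr showed a sort difference mainly in Nrp1, the neuropilin coreceptor of VEGF, at 84 h and 95 h. Of 10 measured ligand and receptor genes 1 was higher and 1 lower at 84 h, with Nrp1 at 1.21 (SE 0.11, adjusted p = 1.61e-07) and the angiopoietin gene Angpt1 at -0.88 (SE 0.25, adjusted p = 0.0255). At 95 h Nrp1 was higher by 1.04 (SE 0.11, adjusted p = 2.46e-06) and Flt1, another VEGF receptor, lower by -0.66 (SE 0.16, adjusted p = 0.0281). Over all features 5.3% were higher and 8.18% lower at 84 h, so the counts of 1 of 10 at that time are near the background. At 95 h these shares were 0.659% and 1.37%. At 8 d 0 of 10 were called, and 3 were higher at an unadjusted p under 0.05. Nrp1 was then at 0.285 (SE 0.11, adjusted p = 0.605) and Angpt2, another angiopoietin gene, at 0.89 (SE 0.24, adjusted p = 0.164). The median difference was -0.03, -0.12 and 0.09 at the 3 times.

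Relatives and partners of Fgd5 were called between the sorts at near the share of all features. Of its own family Fgd6 was measured, at -0.19, -0.29 and -0.07 (SE 0.10 each) at the 3 times, and it was not called. Among 17 genes of the Fgd and Cdc42 list 1 was higher at 84 h, Cdc42ep1, a Cdc42 effector, at 0.90 (SE 0.15, adjusted p = 0.000548), and 1 lower, the kinase gene Cdc42bpg, at -0.61 (SE 0.14, adjusted p = 0.00881). Over all features 5.3% were higher and 8.18% lower at 84 h, so 1 of 17 each way is near the background. At 95 h and 8 d 0 of 17 were called, with 0 higher and 2 lower, and 1 higher and 0 lower, at an unadjusted p under 0.05, and with the replicate block Cdc42bpg was called lower at 95 h (adjusted p = 0.0171). Cdc42 itself was at -0.39, -0.11 and 0.20 (SE 0.15 each). Over time, the 8 d level of Cdc42ep1 exceeded that of 95 h by 2.41 in Flk1+ and 2.09 in Flk1- cells (SE 0.15 each) and Cdc42ep3 by 2.02 and 1.80 (SE 0.16 each), with 5 of 17 higher in Flk1+ and 4 in Flk1- cells. Higher calls made up 12.8% of all features over that step in Flk1+ and 9.88% in Flk1- cells, and lower calls 9.31% and 7.78%.

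Of 25 measured genes of the BTB-Kelch family and its Cullin 3 ligase, 1 was higher and 4 lower in Flk1+ cells at 84 h, where 5.3% of all features were higher and 8.18% lower. The lower count was 1 to 6 with any 1 array left out, with 1 without array 4 of Flk1+ cells or array 1, 2 or 3 of Flk1- cells at 84 h, 2 without array 2 of Flk1+ cells and 6 without array 1 of Flk1+ cells. Ivns1abp was higher by 0.52 (SE 0.14, adjusted p = 0.0192), and Enc1 (-0.73, SE 0.22), Klhl24 (-0.54, SE 0.17), Klhl23 (-0.48, SE 0.11) and the ligase subunit gene Rbx1 (-0.28, SE 0.08) were lower. Without the 3 arrays that stood apart 0 were higher and 1 was lower, and the 1 called, Klhl8, named here after its values were seen, was none of these 5. At 95 h and 8 d 0 of 25 were called by limma, with 0 higher and 6 lower, and 2 higher and 1 lower, at an unadjusted p under 0.05, and with the replicate block Klhl23 was called lower at 8 d (adjusted p = 0.0219). Their median difference was -0.10, -0.09 and -0.05, against 1.92, 2.12 and 0.71 for Klhl6. Leukocyte markers, listed because Klhl6 is known from B cells, were called higher in 0 of 5 at any of the 3 times, with 1 higher at 84 h at an unadjusted p under 0.05. Lyz2, the lysozyme gene, was lower at 84 h (-0.27, adjusted p = 0.0349), and without the 3 arrays Lyz2 and Ptprc (-1.39, adjusted p = 0.0324) were. The B cell gene Cd79a differed by 0.22, 0.06 and -0.04 (SE 0.09 each).

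Of 11 measured genes with a phosphotyrosine interaction domain like that of Fam43a, 0 were higher in Flk1+ cells at any time. Only 1 was lower, Apba1 at 84 h (-0.38, SE 0.12, adjusted p = 0.0425), where 5.3% of all features were higher and 8.18% lower. At 84 h 2 were higher, and at 95 h and 8 d 0 were, at an unadjusted p under 0.05, and those 2, Anks1 and Ccm2, were called with the replicate block (adjusted p = 0.04 each). Over the step from 95 h to 8 d 4 of 11 were higher and 1 lower in Flk1+ cells and 5 higher and 0 lower in Flk1- cells, beside 12.8% higher and 9.31% lower, and 9.88% higher and 7.78% lower, of all features. The endocytic adaptor gene Dab2 was higher by 0.54 and 0.85 (SE 0.17 each) and Ccm2, a vascular scaffold gene, by 0.61 and 0.54 (SE 0.13 each). Fam43a had differences of 0.32 and 0.18 (SE 0.18 each) over the same step.

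Among the reductase relatives and prostaglandin enzymes of the Zadh2 list, 2 genes were higher at 8 d. Of 12 measured genes 0 were called in either direction between the sorts at any time, and at an unadjusted p under 0.05 1 was higher and 4 lower at 84 h, and 0 higher and 1 lower at each later time. With the replicate block Ptgr1, Cryz and Ptges3 were called lower at 84 h (adjusted p = 0.012, 0.0223 and 0.0344). From 95 h to 8 d 2 of 12 were higher and 0 lower in each sort. Over all features 12.8% were higher in Flk1+ and 9.88% in Flk1- cells over that step, so 2 of 12 is near the background. These were Ptgs2, the inducible cyclooxygenase, at 1.37 in Flk1+ and 1.95 in Flk1- cells (SE 0.30 each, adjusted p = 0.00234 and 7.6e-05), and Ptgis, prostacyclin synthase, at 0.57 and 0.61 (SE 0.19 each, adjusted p = 0.0312 and 0.0258). The prostaglandin reductase genes Ptgr1 and Ptgr2 were at 0.28 (SE 0.24) and 0.35 (SE 0.13) in Flk1+ and 0.14 (SE 0.24) and 0.19 (SE 0.13) in Flk1- cells, and neither was called.

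Smooth muscle and fibroblast genes were higher at 8 d in both sorts, as was Zadh2. Of 12 measured genes 7 were higher at 8 d than at 95 h in each sort, and 0 were lower in Flk1+ and 1 in Flk1- cells, where 12.8% and 9.88% of all features were higher and 9.31% and 7.78% lower. Postn, a matrix protein, was higher by 5.87 in Flk1+ and 5.54 in Flk1- cells (SE 0.19 each), Acta2, smooth muscle actin, by 3.69 and 3.58 (SE 0.11 each) and the proteoglycan gene Dcn by 2.99 and 3.13 (SE 0.22 each). The mean level of the list was -0.56 to -0.42 on the Flk1+ arrays at 8 d, against -2.03 to -1.82 at 95 h, and -0.62 to -0.38 on the Flk1- arrays at 8 d, against -2.02 to -1.87 at 95 h. At 8 d 0 of 12 were called between the sorts, in either direction and also at an unadjusted p under 0.05, where Zadh2 differed by 0.76 (SE 0.15). The part of this list in the Zadh2 levels was not tested.

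Zadh2 lies on chromosome 18 (84088126 to 84097528) and Kdr on chromosome 5 (75932827 to 75979072). Fgd5 spans 91978827 to 92076005 on chromosome 6, and Klhl6 (19946492 to 19983049) and Fam43a (30599723 to 30602797) are both on chromosome 16. Positions are those of RefSeq on GRCm38.p6, matched by gene identifier. The exon or UTR a probe reads was not used here.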

How the data were processed

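The authors deposited 1 value per probe and array for 20280 probes of a 2-colour Agilent mouse development array, read here as the log2 ratio of sample (Cy5, per the labels) over pup reference (Cy3). Both RNAs were amplified, per the labels' protocols, and dyes were not exchanged. The log base, direction, background correction and normalization are not given in the sources used here. The deposited values average 0 on each array.

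Each array's median was set to 0, which moved arrays by 0.05 to 0.20, and probes of 1 gene were averaged. Of the probes 11813 had 1 annotated gene, 559 several and 7908 none, which left 17440 features. limma 3.58.1 in R 4.3.3 (lmFit, eBayes) fitted a mean per group over 24 arrays. The script was tested on simulated data. The number of arrays limits the precision.

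The 4 genes and the gene lists were chosen with earlier results of these data known. Genes named are Kdr, the 4 genes, the 10 nearest to Kdr by each measure, the 5 nearest to each of the 4, and up to 6 called genes per list and comparison. Samples of 1 number correlated above 0.1 in 11 of 12 pairs (in all at 95 h and 8 d, -0.13 for number 2 at 84 h), taken from deviations from group means, so number pairs samples at 95 h and 8 d as far as these data show. The main fit does not use this pairing. With the number as a block 545 features were called at 95 h, against 354, and 139 at 8 d, against 65. The alternatives tried were no centring, quantile normalization, array weights, a replicate block, leaving out arrays, another choice of probe, other measures of likeness and fits of 8 arrays.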

Additional observations from a re-analysis of the deposited data

Results flagged for a closer look

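In 30 groups of 4 arrays (5 genes in 6 groups) an array was compared with the rest of its group by Dixon's criterion, which chance meets in about 1 of 20 groups, and 3 met it. Array 1 of Flk1- cells at 95 h was low for Klhl6, at -0.99, where the other 3 arrays lay between -0.32 and -0.25. The same array was low for Kdr, at -1.30, where the other 3 lay between -1.02 and -1.0. Array 4 of Flk1+ cells at 8 d was high for Kdr, at 1.89, where the other 3 lay between 1.46 and 1.51. The same array was also the highest for Fgd5, Klhl6, Fam43a and Zadh2.

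The change of Klhl6 from 95 h to 8 d went in opposite directions in the 2 sorts, at -0.53 in Flk1+ cells and 0.88 in Flk1- cells, and the arrays of the 2 times did not overlap in either sort. This difference was not tested, because Klhl6 was chosen on these values.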

How the results depend on the processing

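The sort differences of Fgd5, Klhl6, Fam43a, Zadh2 and Kdr kept their sign at all 3 times under all 14 alternatives each. Of 470 member values under alternatives, 456 moved by less than 1 SD between arrays, 13 moved by more and 1 reversed. Some of the 14 alternatives could not move a value, and such values are counted in the 456. The replicate block left the differences as they were. Each gene has 1 probe, so another choice of probe changed nothing. Leaving out the 3 arrays of 84 h did not touch the sort differences at 95 h and 8 d. Without the 3 arrays of 84 h, Klhl6 was at 2.36 and Kdr at 2.49 at 84 h, and 95 h minus 84 h in Flk1+ cells was 0.23 for both; with array weights Klhl6 at 84 h was 2.33. Quantile normalization gave 0.90 for Zadh2 at 84 h, 0.72 at 95 h, 1.37 for Fgd5 and 2.18 for Kdr at 8 d, -0.063 (reversed) for 95 h minus 84 h of Zadh2 in Flk1+ and 0.11 in Flk1- cells, and for 8 d minus 95 h in Flk1- cells -0.59 for Fgd5, -0.088 for Fam43a (sign changed) and 0.59 for Kdr, and 0.05 (sign changed) for Fgd5 in Flk1+ cells, against -0.12 with medians set to 0; the cause was not tested. The correlation of Zadh2 with Kdr lay between 0.30 and 0.66 over all alternatives, and that of Fgd5 between 0.66 and 0.88. Both values of 0.66 are Spearman rank correlations, where the main Pearson r was 0.36 for Zadh2 and 0.80 for Fgd5. With any 1 array left out Pearson r was 0.34 to 0.39 for Zadh2 and 0.77 to 0.83 for Fgd5. It was 0.30 and 0.88 without the 3 arrays of 84 h, and 0.38 and 0.79 with quantile normalization.

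Counts of called features depended strongly on the fit. At 84 h 2352 features were called, against 1304 with quantile normalization, 1176 without the 3 arrays, 3625 with array weights, 4386 with the replicate block and 347 with the 8 arrays alone, and 1017 (without Flk1- array 2 of 84 h) to 4550 (without Flk1+ array 1 of 84 h) with any 1 array left out. The split was 925 higher and 1427 lower, against 1447 and 1209 with values as deposited. At 95 h the 354 calls became 698, 545 and 135 without the 3 arrays, with the replicate block and with 8 arrays. At 8 d the 65 calls became 218 with quantile normalization, 172 without the 3 arrays, 2332 with array weights, 139 with the replicate block and 952 with 8 arrays, and 31 (without Flk1- array 4 of 8 d) to 102 (without Flk1+ array 2 of 84 h) with any 1 array left out. For 8 d minus 95 h, the 3861 calls in Flk1+ and 3080 in Flk1- cells became 5864 and 5087 without the 3 arrays and 6059 and 6692 with array weights.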
